A study of Mus musculus with 4 samples.

Results

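Imprinted genes are expressed mainly or only from the copy inherited from 1 parent. The 10 described here, Cdkn1c, Dio3, Igf2, Igf2r, Peg3, Peg10, Mest, Grb10, Impact and Nnat, were taken by name from the 20716 genes of the deposited ribosome footprint table, and the entries of each gene were summed. All 10 are in the table under 18 coding sequence entries. Of these genes 8 had reads, 7 had a mean normalised count of at least 25 over the 4 libraries, and Grb10 and Nnat were at 0 throughout.

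Ribosome profiling sequences the mRNA fragments that translating ribosomes protect from nuclease, so a count reflects both how much mRNA there is and how densely ribosomes occupy it. Fewer cells that express a gene and less RNA per cell cannot be told apart in these bulk samples. The 4 groups were wild-type (WT) embryonic stem cells (ESCs), Mettl3 knockout (Mettl3-KO, here KO) ESCs, WT embryoid bodies (EBs) and KO EBs, all C57BL/6 mouse cells, with 1 library of each. Mettl3 is the enzyme that places N6-methyladenosine, m6A, on mRNA. The ESCs grew without serum in LIF and the GSK3 and MEK inhibitors CHIR99021 and PD0325901, which hold them in the naive state. EBs are floating aggregates in which the cells differentiate; they were grown in medium with serum for 8 to 21 days, and no source used here gives the day of each library. How the knockout was made and how many clones were used are likewise not stated, so genotype, cell line and library cannot be told apart.

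Imprinting is set by DNA methylation laid down in the germline and then protected in the embryo. Many imprinted genes act on growth: Igf2 is a growth factor of the embryo, Igf2r carries it to lysosomes for breakdown, Grb10 dampens insulin and IGF receptor signalling, and Cdkn1c stops the cell cycle. Peg10 descends from a retrotransposon and is needed for the placenta, Peg3 is a large zinc finger protein, Dio3 inactivates thyroid hormone, Impact restrains the amino acid sensor kinase Gcn2, and Mest and Nnat are membrane proteins. Igf2, Peg3, Peg10, Mest, Impact and Nnat are expressed from the paternal copy, and Dio3 preferentially from it. Cdkn1c and Igf2r are expressed from the maternal copy, as is Grb10 in most tissues outside neurons. Footprints of this table carry no information on the parental copy.

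Gene reads numbered between 4075850 and 11455539 per library. Of the naive pluripotency markers 7 of 8 had reads in every library, with a summed normalised count of 23706 and 13954 in the WT and KO ESCs and 9696 and 15022 in the WT and KO EBs. The sum was lower in EBs than in ESCs for WT but not for KO. Of the 10 visceral endoderm markers 9 had reads in WT ESCs and all in the other libraries, with sums of 199, 187, 46380 and 1687 in the same order. Trophoblast markers summed to 337, 1126, 5439 and 3921 with 6, 6, 7 and 6 of 10 detected. The defining markers Eomes, Elf5 and Prl3d1 were at 0 in every library, but have at most 57 coding bases to which a read could be assigned. Mesenchyme markers summed to 409, 2002, 1075 and 5963 with 5 of 7 detected, and Pdgfra and Postn, with 0 and 165 assignable bases, were at 0. Mettl3 itself was 1.89-fold lower in KO than in WT ESCs (95% counting interval 1.69 to 2.12) and 1.31-fold lower in EBs (1.09 to 1.57), and whole-gene counts cannot show a small deletion.

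The first result concerns what the counts cover. The table sets aside as ambiguous, the counter's class for reads that could belong to more than 1 entry, between 8.62% and 10.5% of all reads. The entries show what this does to genes with several isoforms. In the RefSeq annotation of GRCm38.p6, 6659 entries of the table have no base of their own, and 10 of them (0.150%) had a read, against 79.2% of the 16363 entries that share no base. An isoform entry was therefore taken as measured over the bases it holds alone, here called assignable; the counting mode itself is not stated in any source used. Igf2r, Peg3, Impact and Dio3 have 1 entry each and are counted over their whole coding sequence. The other 6 genes have several entries, and the assignable part is 1889 of 3021 coding bases for Peg10, 165 of 1791 for Grb10, 81 of 246 for Nnat, 39 of 1047 for Cdkn1c, 33 of 576 for Igf2, and 26 of 1008 and 47 of 1029 for a pair of Mest isoforms. At most 6.71% of the 28-nt windows of any of these coding sequences occur at another place.

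**Figure D1:**
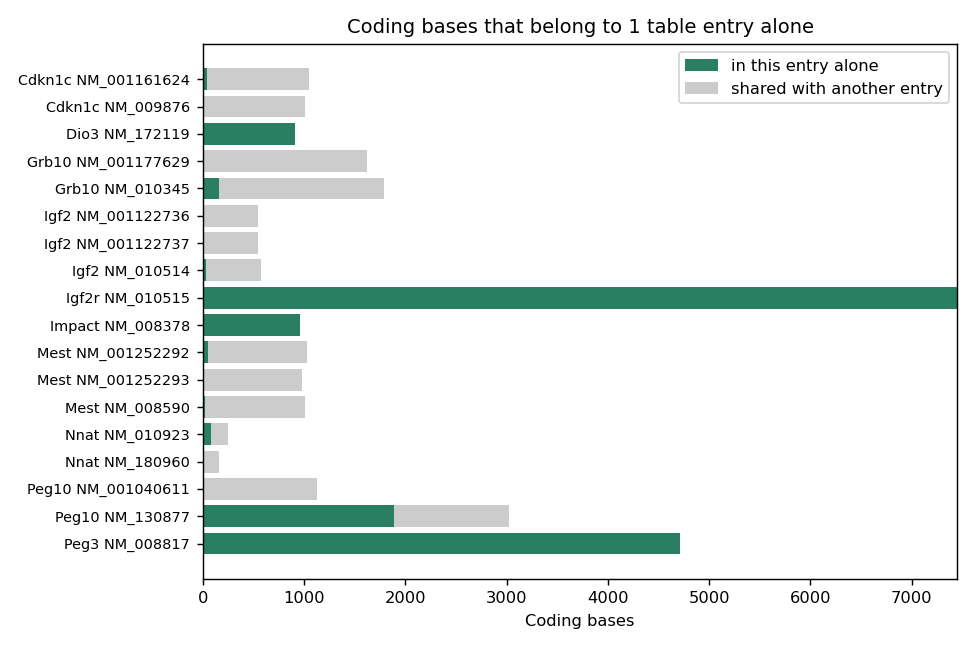
Bars give the coding bases of each of the 18 entries of the 10 genes (x axis, bases), split into bases in that entry alone (green) and bases shared with another entry of the table (grey). Igf2r, Peg3, Impact and Dio3 are green throughout, while Cdkn1c, Igf2 and Mest keep 47 bases or fewer per entry.

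The stretches below are printed because they are the only coding bases from which the counts of Igf2, Cdkn1c and Mest, and the zeros of Nnat and Grb10, could come. They were read from the GRCm38.p6 genome 5′ to 3′ on the coding strand, with a start codon in capitals. Igf2 has a run of 27 bases (chr7:142658364-142658390, minus strand) followed across an intron by 6 bases (chr7:142655811-142655816). The Cdkn1c run of 39 bases is at chr7:143460669-143460707 (minus strand) and that of the Mest entry with reads at chr6:30738310-30738335 (plus strand). The Nnat exon of 81 bases is at chr2:157561213-157561293 (plus strand) and the Grb10 exon of 165 bases at chr11:11954744-11954908 (minus strand).
Igf2: ATGggcggcagcgtcgccggcttccag
Cdkn1c: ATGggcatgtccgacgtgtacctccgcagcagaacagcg
Mest: ATGgtgcgccgagatcgcttgcgcag
Nnat: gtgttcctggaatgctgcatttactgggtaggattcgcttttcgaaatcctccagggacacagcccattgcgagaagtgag
Grb10: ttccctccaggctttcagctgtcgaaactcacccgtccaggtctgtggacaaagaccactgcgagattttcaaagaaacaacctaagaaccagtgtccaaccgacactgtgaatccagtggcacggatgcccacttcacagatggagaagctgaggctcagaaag
The Igf2, Cdkn1c and Mest stretches begin at the start codon of the longest or alternative isoform, so their counts leave out the body of the gene. Footprints are often dense at start codons, and such a stretch is not like for like with a whole coding sequence.

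Peg10 is a different case. Its protein is made in 2 frames: ribosomes slip back 1 base at a slippery heptamer and read on past the stop codon of the first frame. The shorter entry, 1131 bases, ends at that stop codon and lies wholly inside the longer one, so the counts of Peg10 in the table are taken to come from the 1889 bases after the first-frame stop, which ribosomes reach by slipping. The stretch at the junction (chr6:4755304-4755351, plus strand) is shown with the heptamer and the first-frame stop codon in capitals.
Peg10: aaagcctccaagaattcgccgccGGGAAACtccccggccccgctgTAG
The heptamer by itself is common, since 11.4% of coding sequence entries hold these letters on the coding strand in any frame.

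Peg3 and Peg10 were the imprinted genes of this set with the most added footprints in WT EBs. Peg3 (NM_008817, chromosome 7, 6703892 to 6730462), a zinc finger protein linked to growth and to p53 signalling, had a normalised count of 754 and 990.1 in the WT and KO ESCs and 5029 and 1906 in the WT and KO EBs. WT EBs stood above the other 3 libraries. The ratio of WT EBs to WT ESCs was 6.67 (interval 6.20 to 7.17) and that of KO EBs to KO ESCs 1.92 (1.79 to 2.07). KO EBs were 2.64-fold lower than WT EBs (2.47 to 2.82), while KO ESCs were 1.31-fold higher than WT ESCs (1.21 to 1.42).

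Peg10 (NM_130877, chromosome 6, 4747306 to 4760517), counted over its second frame, stood at 922 and 639 in the WT and KO ESCs and 5439 and 1793 in the WT and KO EBs. Again WT EBs were the highest library, and KO was lower than WT at both stages. The EB to ESC ratio was 5.90 in WT (5.52 to 6.30) and 2.81 in KO (2.59 to 3.04). KO EBs were 3.03-fold lower than WT EBs (2.84 to 3.24) and KO ESCs 1.44-fold lower than WT ESCs (1.33 to 1.57). Per 100 possible positions of a 28-nt read, the level of Peg10 reached 288 in WT EBs against 106 for Peg3. With 1889 assignable bases, Peg10 ranked above 98.5% of the 13237 genes that have reads and at least 300 assignable bases in WT EBs, and Peg3 above 90.5%. Whether the change lies in mRNA, in ribosome loading or in the share of ribosomes that slip cannot be told apart, because the first frame has no assignable base.

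Subtracting the WT change from ESCs to EBs from that of KO gave, on the log2 scale, -1.79 for Peg3 (-1.94 to -1.65) and -1.07 for Peg10 (-1.22 to -0.92). Igf2 was the third gene past -1 on that scale, at -2.17 with a pseudocount of 1, but rested on 1 read in WT ESCs. With these, 3 of the 7 genes above the minimum were lower by 1 or more and 0 higher, against 12.5% and 11.4% of all genes tested. The count was 2 with TMM scaling, where Peg10 stood at -0.98, with a pseudocount of 5, where Igf2 stood at -0.83, and with a minimum mean of 100, which leaves Igf2 out. The visceral endoderm markers were also highest in WT EBs, at a summed count of 46380 against 1687 in KO EBs, with all 10 lower in KO. The part of these markers in the Peg3 and Peg10 values was not tested.

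**Figure D2:**
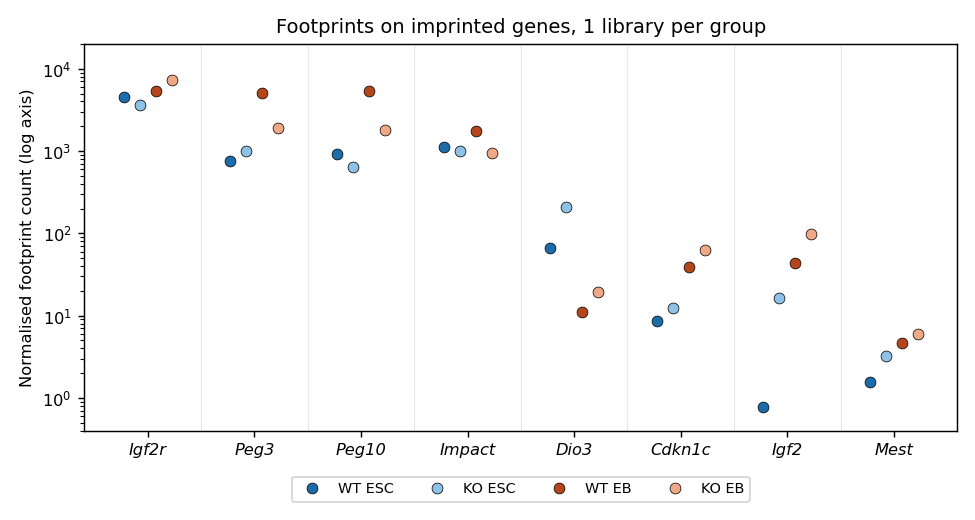
Points give the normalised footprint count (log axis) of the 8 imprinted genes with reads in WT ESCs, KO ESCs, WT EBs and KO EBs, 1 library each and so without error bars. Peg3 and Peg10 peak in WT EBs at 5029 and 5439, Dio3 is highest in KO ESCs at 210.2, and Igf2 and Cdkn1c are highest in KO EBs at 97.02 and 62.7.

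Impact (NM_008378, chromosome 18, 12954690 to 12992950) had the narrowest log2 range of the 4 genes with over 100 reads in every library. It stood at 1105 and 1003 in the WT and KO ESCs and 1742 and 949 in the WT and KO EBs. WT EBs were the high library here too, while the other 3 lay close together. WT EBs exceeded WT ESCs 1.58-fold (1.46 to 1.71), KO EBs were at 0.947 of KO ESCs (0.864 to 1.04), and KO EBs were 1.84-fold lower than WT EBs (1.66 to 2.03). The ESC difference between KO and WT, a log2 fold of -0.14, came to -0.01 when libraries were scaled to equal totals. Per 100 read positions Impact held 112, 102, 177 and 96.5 footprints in the order above, the highest of the 4 genes counted over their whole coding sequence in both ESC libraries and in WT EBs, and level with Igf2r, at 96.3, in KO EBs.

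Of the 10 genes listed around Impact and Gcn2 signalling, all passed the minimum. In KO EBs against WT EBs 1 was at least 2-fold higher, Ppp1r15a, which helps to reverse the phosphorylation of eIF2 (log2 fold 1.05), and 0 lower, against 15.2% and 12.2% of all genes. In WT EBs against WT ESCs 0 were higher and 2 lower, Ppp1r15a (-1.63) and the transcription factor Atf4 (-1.07), against 11.0% and 8.25%. The Gcn2 kinase gene Eif2ak4 could be counted over 336 of its 4947 coding bases and stood between 15.6 and 34.1.

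The receptor Igf2r (NM_010515, chromosome 17, 12682406 to 12769706) had 3418 to 6872 reads per library, the most of the 10 genes except in WT EBs, where Peg10 had 3490. It stood at 4575 and 3666 in the WT and KO ESCs and 5327 and 7202 in the WT and KO EBs. KO was the lower library in ESCs and the higher one in EBs: 1.25-fold lower (1.21 to 1.29) and 1.35-fold higher (1.29 to 1.41). From ESCs to EBs the ratio was 1.16 in WT (1.12 to 1.21) and 1.96 in KO (1.89 to 2.04), and the difference on the log2 scale was 0.755 (0.674 to 0.835). Per assignable kilobase Igf2r ranked above 82.6%, 78.7%, 84.7% and 89.9% of genes in WT ESCs, KO ESCs, WT EBs and KO EBs.

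Its ligand Igf2 (NM_010514, chromosome 7, 142650768 to 142666816), seen only through its first 33 coding bases, had 1 read and 31 in the WT and KO ESCs and 28 and 65 in the WT and KO EBs. These correspond to normalised counts of 0.778, 16.5, 43.6 and 97.02. KO was above WT at both stages and EBs above ESCs in both genotypes. The KO to WT ratio in ESCs was 21.2 with an interval of 3.54 to 866, and in EBs 2.22 (1.41 to 3.60). The EB to ESC ratio was 56.1 in WT (9.27 to 2293) and 5.87 in KO (3.77 to 9.31). Igf2 passed the minimum only through the EB libraries.

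Grb10 (chromosome 11, 11930499 to 12037428), the adaptor that dampens insulin and IGF receptor signalling, had 0 reads over its 165 assignable bases in each library. A count of 0 allows up to 3 reads, or normalised counts of 2.34 and 1.60 in the WT and KO ESCs and 4.68 and 4.48 in the WT and KO EBs. That exon is absent from the other Grb10 entry, whose bases are all shared, so these values bear on the longer isoform alone. For Nnat (chromosome 2, 157560078 to 157562525) the same limits hold for the exon of 81 bases that the shorter isoform skips.

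Of 22 listed genes of the IGF and insulin pathway 15 passed the minimum. In WT EBs against WT ESCs 6 were higher by 2-fold or more and 0 lower, where 11.0% of all genes were higher and 8.25% lower, and the median log2 fold was 0.69 beside -0.02 over all genes. The largest folds were those of the IGF-binding protein Igfbp4 (35.0 and 365, 10.4-fold, 7.54 to 14.7) and the receptor substrate Irs1 (9.34 and 79.5, 8.51-fold, 4.48 to 17.5). Irs1 passed the minimum only through the EB libraries, so its higher count there is a description. In KO EBs against KO ESCs 7 were higher and 1, the regulatory PI3-kinase subunit Pik3r1, lower (3.83-fold, 2.32 to 6.71, over 1022 of its 2175 coding bases), against 9.31% and 6.65% of all genes. Between KO and WT EBs 3 were higher and 2 lower, against 15.2% and 12.2%. The EB counts of Igfbp6 were 26.5 for WT and 88.1 for KO (ratio 3.32, interval 1.91 to 6.08), and those of Igfbp5 53.0 and 118 (2.23, 1.47 to 3.43). The signalling receptors Igf1r and Insr stayed within 2-fold in every comparison. In ESCs 3 of the 15 were at least 2-fold higher in KO and 0 lower, against 10.6% and 4.42%.

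Cdkn1c (NM_001161624, chromosome 7, 143458339 to 143461059), an inhibitor of cyclin-dependent kinases, had 11, 23, 25 and 42 reads in WT ESCs, KO ESCs, WT EBs and KO EBs over its first 39 coding bases. The normalised counts were 8.56, 12.3, 39.0 and 62.7. Both EB libraries lay above both ESC libraries, by 4.55-fold in WT (2.16 to 10.2) and 5.11-fold in KO (3.00 to 8.90). The KO to WT ratio was 1.43 in ESCs (0.671 to 3.26) and 1.61 in EBs (0.958 to 2.75), so at this depth a difference between genotypes was not detectable. Cdkn1c, like Igf2, passed the minimum only through the EB libraries.

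Among 15 related inhibitors, cyclins and kinases 10 passed the minimum, and between WT and KO EBs 6 of these were at least 2-fold higher in KO and 0 lower. Over all genes 15.2% were higher and 12.2% lower, and the median log2 fold was 1.18 for the list beside -0.07 for all genes. They were the INK4 inhibitors Cdkn2a, Cdkn2b and Cdkn2d, the cyclins Ccnd1 and Ccnd2, and the kinase Cdk6. Cdkn2b went from 104 to 339 (ratio 3.24, interval 2.46 to 4.33) and Ccnd2 from 232 to 673 (2.90, 2.40 to 3.51), WT EBs first. Cdkn1b, of the same Cip/Kip family as Cdkn1c, lay between 515 and 595 in all 4 libraries. In ESCs Cdk6 alone of the 10 was at least 2-fold higher in KO (2.14-fold, 1.83 to 2.52) and 0 were lower. Over all genes 10.6% were higher and 4.42% lower there, so 1 of 10 is close to the share of all genes. The mesenchyme markers were highest in KO EBs as well, at a summed count of 5963 against 1075 in WT EBs. Their part in the Igf2 and Cdkn1c values was not tested.

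Dio3 (NM_172119, chromosome 12, 110279230 to 110281097) was lower in EBs than in ESCs in both genotypes. It passed the minimum only through the ESC libraries, so among genes that passed it had to be lower in EBs, and its place there supports nothing further. Dio3 is a selenoprotein, in which a TGA codon is read as selenocysteine. A TGA codon lies in frame at codon 170 of 305, is the only one before the end, and is shown in capitals with its surroundings (chr12:110279709-110279771, plus strand).
Dio3: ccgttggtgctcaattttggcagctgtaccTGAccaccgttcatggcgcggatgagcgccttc
Its normalised count was 66.9 and 210.2 in the WT and KO ESCs and 10.9 and 19.4 in the WT and KO EBs, from 86, 394, 7 and 13 reads. KO ESCs were 3.14-fold higher than WT ESCs (2.48 to 4.01), and KO EBs were 1.78 times WT EBs with an interval of 0.660 to 5.27. WT EBs were 6.14-fold lower than WT ESCs (2.85 to 15.7) and KO EBs 10.8-fold lower than KO ESCs (6.26 to 20.5). Per assignable kilobase Dio3 ranked above 64.2% of genes in KO ESCs and above 29.1% in WT EBs.

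The other genes of thyroid hormone handling are given beside Dio3. Of 12 listed, 8 passed the minimum. In WT EBs against WT ESCs 4 were higher by 2-fold or more and 0 lower, against 11.0% and 8.25% of all genes, with a median log2 fold of 0.62 beside -0.02. They included the hormone carrier Ttr, a visceral endoderm product (0 and 1612), and the hormone-binding protein Crym (26.5 and 123). Ttr passed the minimum only through the EB libraries, so its higher count there is a description. In KO against WT ESCs 2 were higher and 0 lower, against 10.6% and 4.42% of all genes. They were Crym (137 in KO, 5.16-fold, 3.60 to 7.61) and Ttr, with 4 reads in KO and 0 in WT. The related deiodinases Dio1 and Dio2 had at most 1.60 and 0.778. The selenocysteine machinery genes Secisbp2, Eefsec and Trnau1ap stayed within 2-fold in every comparison.

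Mest (chromosome 6, 30733506 to 30748466), an enzyme-like protein of the endoplasmic reticulum that marks embryonic mesoderm, had 2, 6, 3 and 4 reads in WT ESCs, KO ESCs, WT EBs and KO EBs. The normalised counts of 1.56, 3.20, 4.68 and 5.97 lay under the minimum, and no comparison had an interval that left out a ratio of 1. All of these reads came from the entry with 26 assignable bases. The entry with 47 was at 0.

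**Figure D3:**
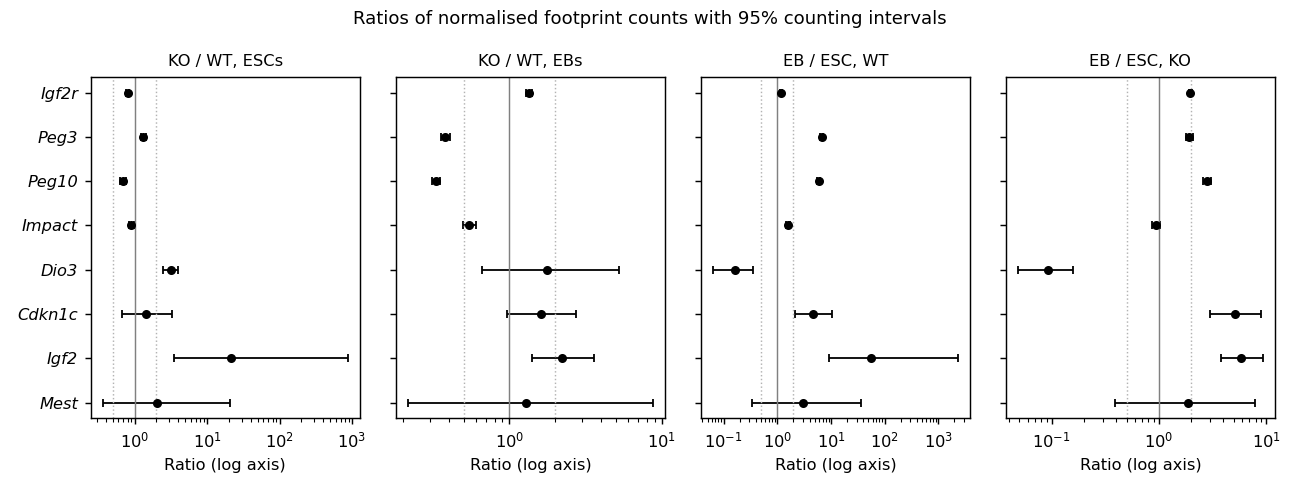
Points give the ratio of normalised footprint counts (log axis) for 8 imprinted genes in 4 comparisons, and bars the 95% counting intervals, which hold no biological spread; dotted lines mark 2-fold. In EBs the KO to WT ratios of Peg3 and Peg10 lie under the lower dotted line, and in both genotypes the EB to ESC ratio of Dio3 lies under it.

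Counted together, of the 7 genes above the minimum 2 (Igf2 and Dio3) were at least 2-fold higher in KO ESCs and 0 lower, where 10.6% of all genes were higher and 4.42% lower. In KO against WT EBs 1 (Igf2) was higher and 2 (Peg3 and Peg10) lower, against 15.2% and 12.2%. In WT EBs against WT ESCs 4 (Igf2, Peg3, Peg10 and Cdkn1c) were higher and 1 (Dio3) lower, against 11.0% and 8.25%. In KO EBs against KO ESCs 3 (Igf2, Cdkn1c and Peg10) were higher and 1 (Dio3) lower, against 9.31% and 6.65%; with TMM scaling Igf2r and Peg3 also passed 2-fold there, at log2 folds of 1.04 and 1.01. The median log2 folds of the 7 were 0.39, 0.44, 2.06 and 0.97 in the order of these comparisons, beside -0.00, -0.07, -0.02 and -0.08 over all 9670 genes tested. The 4 comparisons share libraries in pairs, and genes that passed the minimum only through 1 stage (Igf2 and Cdkn1c through EBs, Dio3 through ESCs) had to be higher there. The means used for the minimum rested most on KO ESCs for Dio3 (210.2) and on KO EBs for Igf2 (97.02). The genotype calls of both genes are therefore descriptions.

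A test over the recovered reads could use the 4 libraries only by treating the stages as repeats for genotype and the genotypes as repeats for stage. By edgeR's quasi-likelihood test no imprinted gene of this set passed an adjusted p of 0.05. For the stage effect 0.207% of the 9670 genes tested were higher and 0.0517% lower in EBs. Peg10 came nearest, with a log2 fold of 2.05 in EBs and an edgeR adjusted p of 0.0857, and over the alternatives of this test its adjusted p ran from 5.05e-06 to 0.0849. Dio3 had a log2 fold of -3.03 with an edgeR adjusted p of 0.103 (0.00581 to 0.102 over the alternatives). Peg3 had a log2 fold of 1.86 with an edgeR adjusted p of 0.161, and Igf2 one of 3.54 with 0.178. DESeq2, which called 2.83% of genes higher and 1.04% lower in EBs, placed Peg10, Peg3, Dio3 and Igf2 past the threshold. For Dio3 and Igf2, which entered the test only through the stage where they are high, the stage values are a description. For genotype edgeR called 0 genes, with 1556 genes reaching 0.05 before adjustment. DESeq2 called 251 genes (2.60%) higher and 71 (0.734%) lower in KO. Neither tool placed an imprinted gene of this set among its genotype calls, and the smallest edgeR adjusted p was that of Peg10, 0.226, at a log2 fold of -1.04.

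Of 24 listed paternally expressed genes 23 are in the table and 11 passed the minimum; of 31 maternally expressed ones 14 did. Some of them are imprinted only in certain tissues. Snrpn, Ins2, Zdbf2, Slc22a18 and Tssc4 have no base of their own and could not be measured, and Dlk1 had 0 reads over 153 assignable bases. In KO against WT ESCs 0 paternally expressed genes were at least 2-fold higher and 3 lower, and 4 maternally expressed genes were higher and 0 lower. Over all genes 10.6% were higher and 4.42% lower, and the median log2 folds of these lists were -0.05 and 0.03 beside -0.00. In EBs the counts were 3 higher and 3 lower for the paternally expressed genes, and 3 and 1 for the maternally expressed ones, against 15.2% and 12.2% of all genes, with medians of -0.52 and 0.33 beside -0.07.

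Among the paternally expressed genes Plagl1, a zinc finger factor that regulates other imprinted genes, stood at 1033 and 260.3 in the WT and KO ESCs and 73.3 and 50.8 in the WT and KO EBs. It was 3.97-fold lower in KO ESCs (3.57 to 4.41) and 14.1-fold lower in WT EBs than in WT ESCs (10.5 to 19.3). Mkrn3, a ubiquitin ligase gene of the Prader-Willi region, was 4.03-fold lower in KO ESCs (2.76 to 6.01), at 81.7 and 20.3. In EBs Peg12 had 10.9 for WT and 91.1 for KO (ratio 8.35, interval 3.82 to 21.6), and Usp29 157 and 19.4 (8.11-fold lower, 4.54 to 15.8). Usp29 passed the minimum only through its WT EB value, so its place among the lower genes is a description. Inpp5f, a phosphoinositide phosphatase, was 2.60-fold lower in KO EBs (2.21 to 3.07), close to the 2.64-fold of Peg3. Fthl17a, 5.20-fold higher in KO EBs (3.65 to 7.60), belongs to a multigene ferritin-like family, so its reads are uncertain.

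Among the maternally expressed genes Ascl2, a transcription factor of trophoblast, stood at 24.9 and 158 in the WT and KO ESCs and 70.1 and 519 in the WT and KO EBs, higher in KO at both stages. Atp10a, a lipid-transporting ATPase, stood at 18.7, 139, 134 and 215, with WT ESCs the low library; KO ESCs were 7.45-fold higher (4.90 to 11.8). Phlda2, a restraint on placental growth, was 2.55-fold higher in KO ESCs (2.22 to 2.93) and 2.01-fold higher in KO EBs (1.72 to 2.34). Pon3 was 2.30-fold higher in KO EBs with an interval of 0.754 to 8.33, and Ppp1r9a 2.20-fold lower (1.59 to 3.07). The glutaminyl cyclase Qpct was 7.11-fold lower in WT EBs than in WT ESCs (5.56 to 9.23).

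**Figure D4:**
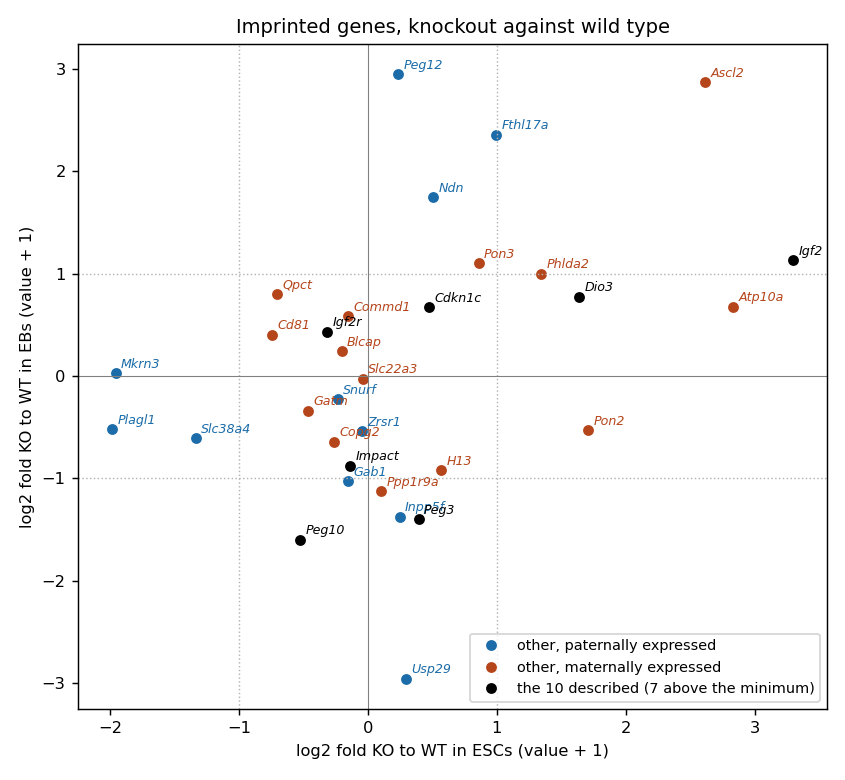
Each point is an imprinted gene above the minimum, placed by its log2 fold of KO to WT in ESCs (x axis) and in EBs (y axis), with dotted lines at 2-fold; the axes share no library. Igf2, Ascl2 and Phlda2 lie above both upper lines, Phlda2 barely so in EBs, Peg10 lies below 0 on both axes, and Peg3 and Usp29 lie within 2-fold in ESCs and under the lower line in EBs. Usp29 passed the minimum only through WT EBs.

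Factors that keep imprints methylated were mostly beyond reach: of 17 listed, 10 had 0 reads, among them Dnmt1, Uhrf1 and Zfp57, which have no base of their own. Of the 7 that passed, Dppa3, which shields imprints in the early embryo, was 3.37-fold lower in KO ESCs (2.78 to 4.10) and 3.17-fold lower in KO EBs (2.49 to 4.07). Hells, a chromatin remodeller needed for DNA methylation, was 1.65-fold lower in KO ESCs (1.58 to 1.71) and 2.52-fold lower in KO EBs (2.34 to 2.72). Trim28, the corepressor bound by zinc finger proteins at imprints, was 1.77-fold lower in KO ESCs (1.74 to 1.81) and 1.19-fold lower in KO EBs (1.15 to 1.23). Naa10, counted over 212 of 708 coding bases, was 2.81-fold higher in KO EBs (1.57 to 5.32).

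Likeness of pattern was taken as the distance between log2 values centred over the 4 libraries, among 7482 genes with a mean of at least 100. The nearest genes to Peg3 were Crim1 and Baiap2l1 (distances 0.144 and 0.272), and to Peg10 Dusp6 and Emb (0.135 and 0.173). Peg3 and Peg10 were each other's nearest among the 7 imprinted genes, at 0.692. Impact lay nearest to Ube2g2 and Nfxl1 (0.0415 and 0.0428), Igf2r to H1f4 and Sigirr (0.0711 and 0.107), and Dio3 to Pou2f3 and Spic (0.597 and 0.765). Igf2 lay nearest to the matrix proteases Mmp3 and Mmp9 (0.585 and 0.785) and Cdkn1c to Igfbp3 and Tmc4 (0.294 and 0.386). With 4 libraries such distances are descriptions of these libraries.

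The letters GGACT, a frequent form of the m6A consensus, were counted on the coding strand of the longest coding sequence of each gene. Igf2r holds 12 matches, Peg3 4, Grb10 3, Cdkn1c and Peg10 2 each and Impact 1, while Dio3, Igf2, Mest and Nnat hold 0. Per kilobase Cdkn1c has 1.91, Grb10 1.68, Igf2r 1.61, Impact 1.04, Peg3 0.848 and Peg10 0.662. The median over 20334 genes is 1.05, and 73.3% of them hold at least 1 match. A match is not a methylated site, and untranslated regions were not searched.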

How the data were processed

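The authors' deposited table gives a normalised signal, the read count per RefSeq coding sequence divided by 1 size factor per library. Per the submitters' processing notes the build was mm10 and the tools included HTSeq 0.6.0, DESeq, TopHat2 2.0.10, CASAVA 1.8.2 and Bowtie. No source used here gives their settings, annotation version or strand handling. Per the labels' protocols lysates were treated with RNase I and the protected fragments size-selected. In each library 100% of the values were whole multiples of what 1 read is worth, within 0.01, so the reads were recovered; 1 read was worth 0.778 and 0.533 in the WT and KO ESCs and 1.56 and 1.49 in the WT and KO EBs. The 5 summary rows, which name no gene, stayed out of library sizes and tests; genes held 27.9% to 33.4% of all reads, and 48.4% to 55.7% were not uniquely placed.

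Entries took symbols from a GRCm38.p6 table (27079 matched) and were summed per gene. GRCm38.p6 is the assembly of mm10. An entry's assignable bases were those inside no other entry's coding sequence on either strand, for the 27056 entries placed in that annotation; the authors' annotation may differ from it. Windows of 28 nt were chosen here. Genes with a mean of at least 25 were compared by log2(value + 1), which understates changes of low genes. A comparison of 2 libraries was given no p-value, since each group has 1. Ratios carry 95% conditional exact (Clopper-Pearson) intervals, those of the log2 difference a normal approximation from the reads. Both, and the floor of 3 reads, cover counting error only and treat each read as independent. PCR reads are not independent molecules, so the intervals may be too narrow even for counting error. The count test, run on recovered reads in place of counts, used edgeR 4.0.16 (TMM) with genotype and stage as terms, adjusted by Benjamini-Hochberg over 9670 genes; DESeq2 1.42.0 was an alternative. The edgeR test was also run on simulated data that held genotype changes but no stage effect. That run does not show how the test performs on these libraries. Named genes were the 10 imprinted genes, up to 2 highest and 2 lowest of each list per comparison, and the 2 nearest in pattern; genes named for a value of 0, to complete a count, or for their role (Igf1r, Insr, Cdkn1b, Secisbp2, Dio1, Dio2, Phlda2, Magel2, Zim1, Klf14) were added after their values were seen. The genes and lists were chosen with earlier results of these data known. Alternatives were pseudocounts of 5 and 0.5, minimum means of 0 and 100, scaling to equal totals or by TMM, and the highest entry in place of the sum. A result on 1 listed gene is not reported here.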

Additional observations from a re-analysis of the deposited data

Results flagged for a closer look

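Igf2r stood on opposite sides of 1 in the genotype comparison at the 2 stages, with a KO to WT ratio of 0.801 in ESCs (95% counting interval 0.774 to 0.830) and 1.35 in EBs (1.29 to 1.41). Peg3 did so the other way, with 1.31 in ESCs (1.21 to 1.42) and 0.379 in EBs (0.355 to 0.404). Both are listed because 1 stage moved one way and the other stage the opposite way beyond the counting intervals, which leave out scaling. With equal totals the ESC log2 fold of Igf2r went from -0.32 to -0.19 and that of Peg3 from 0.39 to 0.52. These shifts exceed the counting intervals, though no sign changed. In ESCs the fold of Igf2r lay above 28.6% of all genes tested and that of Peg3 above 72.3%. In EBs these shares were 70.8% and 5.78%. With 1 library per group the difference was not tested.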

How the results depend on the processing

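Recomputed log2 folds of single imprinted genes stayed within the counting interval in 219 cases and moved beyond it in 11, and no result reversed under the alternatives run. The 219 include every case with another minimum mean or with the highest entry. Those settings could not change the fold of a single one of these genes, so such cases say nothing on stability. Counts of the other imprinted genes stayed the same or nearly so in 116 cases and moved in 24. In KO against WT EBs the 3 maternally expressed genes higher became 1 with a pseudocount of 5 and 7 without a minimum. In KO against WT ESCs the 0 paternally expressed genes higher became 1 with a pseudocount of 0.5 or with equal totals. Scaling to equal totals moved the median of all genes by 0.127 in KO against WT ESCs and by 0.118 in EBs. With a minimum mean of 100, which removes Cdkn1c, Dio3 and Igf2, the genes at least 2-fold higher numbered 0 in KO ESCs, 0 in KO EBs, 2 in WT EBs over WT ESCs and 1 in KO EBs over KO ESCs, and those lower in EBs 0 in either genotype. With TMM the KO stage comparison had 5 higher. For genotype, DESeq2 called 251 genes higher and 71 lower, and edgeR without a minimum 204 and 73; for stage, edgeR with DESeq2 size factors called 36 higher, DESeq2 274 higher and 101 lower, and edgeR without a minimum 243 and 95. The cause was not tested. Without a minimum edgeR also placed Peg10, Peg3, Dio3 and Igf2 past the threshold for stage. No paired analysis was possible because each group has 1 library and the labels number no replicates; the count test already holds stage as a term. Depth limits Mest, Igf2 and Cdkn1c, with at most 65 reads in a library.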

Other observations

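A pair of imprinted genes under the minimum, picked after their values were seen, had most of their few reads in WT EBs, where Peg3 also peaked. In KO they differed from Peg3, which was higher in EBs than in ESCs, while this pair had 0 reads in KO EBs. Zim1, a maternally expressed zinc finger gene beside Peg3, had 1 read and 4 in the WT and KO ESCs and 14 and 0 in the WT and KO EBs. Klf14, a maternally expressed transcription factor gene near Mest, had 3, 1, 11 and 0. The normalised counts in WT EBs were 21.8 and 17.1, above the limit of 4.48 that a count of 0 allows in KO EBs. Usp29, the paternally expressed neighbour of Peg3, had 21, 38, 101 and 13 reads. Read numbers do not compare directly between libraries. Each read was worth 0.778 and 0.533 normalised counts in the WT and KO ESCs, and 1.56 and 1.49 in the WT and KO EBs. Magel2, of the Prader-Willi region, stood at 7.005 and 5.87 in the WT and KO ESCs and 23.4 and 20.9 in the WT and KO EBs, so both EB libraries lay above both ESC libraries. Its neighbour Ndn, a growth-restraining protein of neurons, stood at 420 and 595 in the WT and KO ESCs and 295 and 993 in the WT and KO EBs, highest in KO EBs (3.37-fold over WT EBs, 2.86 to 3.98).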
